A study of Mus musculus with 6 samples.

Results

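The secreted products of the Paneth cell were followed through 10 genes of the 53379 in the count tables: the lysozymes Lyz1 and Lyz2, the protease Mmp7, the lectins Itln1, Mptx1 and Mptx2, the alpha-defensins Defa17, Defa22 and Defa24, and the ribonuclease Ang4. They were chosen by name, as secreted Paneth proteins and their nearest copies, and were read per library, with control replicate 3 shown apart. RNA sequencing was run on 6 libraries of sorted mouse intestinal stem cells, 3 control and 3 labelled Klf5-KO. Klf5 is a zinc-finger transcription factor of the crypt epithelium, and the design asks what its loss changes in stem cells.

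All mice were C57BL/6. Controls carried Lgr5-EGFP-IRES-CreERT2 and Rosa-tdTomato, and the Klf5-KO mice carried Klf5fl/fl on top of both alleles. In both groups tamoxifen was injected for 5 days at 1 mg per injection, so the controls had Cre activity and the reporter too. Cre and EGFP are both made from the Lgr5 locus, which limits recombination to Lgr5-expressing cells and their progeny and makes the sorted gate depend on the same promoter. Proximal small intestine was the source: crypts came off in 5 mM EDTA, were dissociated for 45 minutes, and gave the Lgr5-EGFPhi cells by sorting. No age is given. The labels do not say that the replicates came from separate mice, so p-values here speak only to the variation among these 6 libraries, which may be technical.

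Paneth cells sit between the stem cells at the crypt base and fill their granules with antimicrobial proteins, which they release into the crypt lumen. The alpha-defensins, called cryptdins in the mouse, are made as inactive precursors that matrilysin, the product of Mmp7, cuts into active peptides. Lysozyme breaks bacterial cell walls, the intelectin and the mucosal pentraxins are lectins that bind microbial surfaces, and angiogenin-4 is a microbicidal ribonuclease. Most of these genes are textbook Paneth markers rather than stem cell genes. Lyz2, best known from macrophages, and Mptx1 were read as the nearest copies of Lyz1 and Mptx2.

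Many of these genes have near-identical copies, and the sequences that decide which copy a read can be assigned to are shown first. The coding sequences come from the GENCODE vM21 transcripts, without the stop codon, 5′ to 3′. In each pair the first gene is in lower case throughout and capitals in the second mark its differences from the first. Defa24 lies at chr8:21734494-21735471 and Defa30 at chr8:21134642-21135598, both on the plus strand of mm10, and 275 of their 279 coding bases are the same. Counted from 1 at the first base of the start codon, the changes from Defa24 to Defa30 are T72C, G154T, A174G and T259A.
Defa24: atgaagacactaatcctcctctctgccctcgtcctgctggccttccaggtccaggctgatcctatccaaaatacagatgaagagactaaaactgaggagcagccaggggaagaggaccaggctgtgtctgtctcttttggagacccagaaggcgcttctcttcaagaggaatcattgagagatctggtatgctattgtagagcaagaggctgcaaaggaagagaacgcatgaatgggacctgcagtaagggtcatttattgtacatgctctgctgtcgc
Defa30: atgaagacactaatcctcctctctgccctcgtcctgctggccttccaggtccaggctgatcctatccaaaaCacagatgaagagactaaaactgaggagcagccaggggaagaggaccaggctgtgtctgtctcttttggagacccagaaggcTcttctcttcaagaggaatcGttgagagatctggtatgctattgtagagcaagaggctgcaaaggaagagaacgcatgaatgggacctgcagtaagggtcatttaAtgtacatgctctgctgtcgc

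Defa17 (chr8:21655780-21656735, plus strand) is shown because its coding sequence is 100% identical to that of Defa3 (chr8:21287409-21288377, plus strand), over 279 bases with 0 differences. A read from inside the coding part cannot tell these genes apart.
Defa17: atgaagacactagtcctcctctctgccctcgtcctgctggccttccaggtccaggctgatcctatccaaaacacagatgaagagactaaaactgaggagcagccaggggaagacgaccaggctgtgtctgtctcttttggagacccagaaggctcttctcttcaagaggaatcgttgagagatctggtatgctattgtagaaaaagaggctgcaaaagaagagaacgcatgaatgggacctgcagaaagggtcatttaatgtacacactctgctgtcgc

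Defa22 (chr8:21162277-21163249, plus strand) and Defa21 (chr8:21025545-21026516, plus strand) are shown because Defa22 is the defensin member with the largest differences in ratio below. Their coding sequences differ at 2 positions, G114T and A204T from Defa22 to Defa21.
Defa22: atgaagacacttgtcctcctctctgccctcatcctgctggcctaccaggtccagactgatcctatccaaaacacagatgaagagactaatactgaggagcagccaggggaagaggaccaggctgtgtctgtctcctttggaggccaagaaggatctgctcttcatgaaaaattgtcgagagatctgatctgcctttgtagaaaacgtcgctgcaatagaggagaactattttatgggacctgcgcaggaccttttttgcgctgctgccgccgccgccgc
Defa21: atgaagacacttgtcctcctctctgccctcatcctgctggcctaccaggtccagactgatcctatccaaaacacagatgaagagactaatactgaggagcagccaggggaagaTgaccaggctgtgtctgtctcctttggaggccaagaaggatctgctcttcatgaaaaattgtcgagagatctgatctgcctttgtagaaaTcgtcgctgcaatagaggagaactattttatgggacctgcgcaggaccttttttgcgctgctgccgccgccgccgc

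The lysozymes lie next to each other on the minus strand, Lyz1 at chr10:117287797-117292868 and Lyz2 at chr10:117277331-117282321, each with 4 exons. Lyz1 encodes the Paneth (P) form and Lyz2 the macrophage (M) form. Their coding sequences match at 422 of 444 bases, 95.05%. The first 240 bases are shown because they hold 17 of the 22 differences.
Lyz1: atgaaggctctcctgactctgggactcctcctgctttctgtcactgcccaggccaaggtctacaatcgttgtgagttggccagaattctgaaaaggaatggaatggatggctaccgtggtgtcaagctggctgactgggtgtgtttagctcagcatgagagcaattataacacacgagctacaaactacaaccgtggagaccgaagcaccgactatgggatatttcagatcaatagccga
Lyz2: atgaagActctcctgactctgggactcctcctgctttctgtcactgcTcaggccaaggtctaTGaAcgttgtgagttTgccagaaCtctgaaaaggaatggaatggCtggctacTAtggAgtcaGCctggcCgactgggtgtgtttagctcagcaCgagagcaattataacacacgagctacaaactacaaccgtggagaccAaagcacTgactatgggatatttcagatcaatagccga

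Mptx1 (chr1:174330518-174332873, plus strand, 2 exons) and Mptx2 (chr1:173274382-173277777, minus strand, 2 exons) are mucosal pentraxins of the C-reactive protein family. They differ at 53 of 657 coding bases, an identity of 91.93%, and 10 of the differences fall in the first 240 bases.
Mptx2: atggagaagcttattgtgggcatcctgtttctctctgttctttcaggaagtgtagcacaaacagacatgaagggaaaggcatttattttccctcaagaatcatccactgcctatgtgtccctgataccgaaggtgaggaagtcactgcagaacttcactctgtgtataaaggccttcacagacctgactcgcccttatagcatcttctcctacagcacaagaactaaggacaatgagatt
Mptx1: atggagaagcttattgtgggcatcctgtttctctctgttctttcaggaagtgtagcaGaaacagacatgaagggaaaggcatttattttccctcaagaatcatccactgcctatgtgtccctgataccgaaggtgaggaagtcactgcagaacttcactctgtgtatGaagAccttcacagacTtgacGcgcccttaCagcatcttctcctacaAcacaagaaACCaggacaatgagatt

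The remaining members have no such close copy. Itln1 is at chr1:171518122-171535294 on the minus strand with 8 exons. Mmp7 is at chr9:7692090-7699585 on the plus strand with 6 exons, and its exons overlap those of AV064505 on the opposite strand, which the stranded counting separates. Ang4 is at chr14:51763878-51773590 on the minus strand with 2 exons, and its coding sequence is 88.05% identical to that of Ang5. No member shares exon positions on its own strand with another gene.

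The 6 libraries held between 61563625 and 77666540 counts. A gene at 0 would be below 0.0389 to 0.0484 CPM (counts in a library of 1000000), the value of 3 counts, and these floors and all intervals cover counting error only. CPM here uses library sizes scaled with TMM factors. The targeted gene went against its label: Klf5 was at 513 ± 33.1 CPM (SD, n = 3) in controls and 892 ± 23.1 CPM (SD, n = 3) in the libraries labelled Klf5-KO. That is a log2 fold change of 0.80 ± 0.10 (SE), with an adjusted p of 0.000632 in edgeR's quasi-likelihood test. Reads were summed over all Klf5 exons, so the floxed part cannot be judged from them, and the group is therefore called "labelled Klf5-KO" throughout. The stem cell markers were present in every library, Lgr5 at 81.2 to 163 CPM and Olfm4 at 1540.2 to 7918 CPM. The 10 members took 0.152% and 0.177% of all counts in control replicates 1 and 2 but 1.76% in control replicate 3. In the libraries labelled Klf5-KO they took 0.782% to 1.01%. Control replicate 3 thus stood apart from the other controls, and the members' group differences are given with and without it.

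The lysozymes showed the pattern that most members followed. Lyz1 was at 397 and 324 CPM in control replicates 1 and 2 and 4096 CPM in control replicate 3. In the libraries labelled Klf5-KO it was at 1767, 2118 and 2549 CPM. All 3 of these lay above control replicates 1 and 2 and below control replicate 3, so the groups overlapped. Lyz2 was far lower, at 0.357, 0.363 and 3.20 CPM in the controls. It was at 1.12, 1.32 and 1.66 CPM in those labelled Klf5-KO. These are 26, 28 and 198 counts against 77, 85 and 120, and the 26 counts of control replicate 1 have a 95% exact Poisson interval of 16.98 to 38.1 counts. Control replicates 1 and 2 were again lowest and control replicate 3 highest.

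Lyz2 is best known as the lysozyme of macrophages, so 20 macrophage and myeloid genes were read beside it, of which 10 passed the filter on low counts. Their summed level was 424 to 937 CPM in controls and 966 to 1148 CPM in the libraries labelled Klf5-KO, nearly all of it Cd74, an antigen-presentation gene that epithelium also expresses. Cd68 had 1214 to 1865 counts per library, Cd14 733 to 1775, Aif1 92 to 139 and Mrc1 33 to 68. Csf1r had 2 to 8 counts per library and Adgre1 0 to 13, and Ms4a7, S100a8 and S100a9 had 0 in every library. Of the 10 tested genes 1, Cd14, rose and none fell, with and without control replicate 3. The part of macrophages in the Lyz2 level was not tested.

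Mmp7, the defensin-processing protease, was at 44.8 and 41.6 CPM in control replicates 1 and 2 and 262 CPM in control replicate 3. The libraries labelled Klf5-KO held 136, 191 and 159 CPM. Control replicate 3 was 5.83 and 6.29 times the other controls, the smallest excess among the members apart from Mptx1.

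Among the lectins, Itln1 was at 207, 261 and 2578 CPM in the controls and at 1215, 1203 and 1458 CPM in those labelled Klf5-KO. Mptx2 was at 49.1, 49.97 and 656 CPM in the controls and at 313, 396 and 449 CPM in those labelled Klf5-KO. In both, control replicates 1 and 2 were lowest and control replicate 3 highest. Mptx1 did not follow this. It was at 0.275, 0.571 and 0.807 CPM in the controls and at 1.69, 0.717 and 0.939 CPM in those labelled Klf5-KO, and the library highest for Mptx1 was replicate 1 of the latter group. These levels rest on 20 to 116 counts per library, and the 95% intervals of control replicate 2 (44 counts, 32.0 to 59.1) and control replicate 3 (50 counts, 37.1 to 65.9) overlapped.

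Of the alpha-defensins, Defa24 and Defa17 were the most abundant members per length. Defa24 was at 542 and 749 CPM in control replicates 1 and 2 and at 6403 CPM in control replicate 3. It was at 3190.2, 2837 and 3813 CPM in those labelled Klf5-KO. Defa17 was at 232, 285 and 2511 CPM in the controls and at 1124, 1094 and 1279 CPM in those labelled Klf5-KO. Defa22 was at 12.3, 6.60 and 110 CPM in the controls and at 76.7, 89.7 and 99.7 CPM in those labelled Klf5-KO. In Defa22 the libraries labelled Klf5-KO came closest to control replicate 3, which was 1.24 times their mean, while for Defa17 it was 2.15 times their mean.

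Ang4 was at 25.1, 62.7 and 838 CPM in the controls and at 283, 160 and 315 CPM in those labelled Klf5-KO. It had the largest spread of any member: control replicate 3 was 33.4 times control replicate 1, 13.4 times control replicate 2 and 3.32 times the mean of the libraries labelled Klf5-KO.

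**Figure D1:**
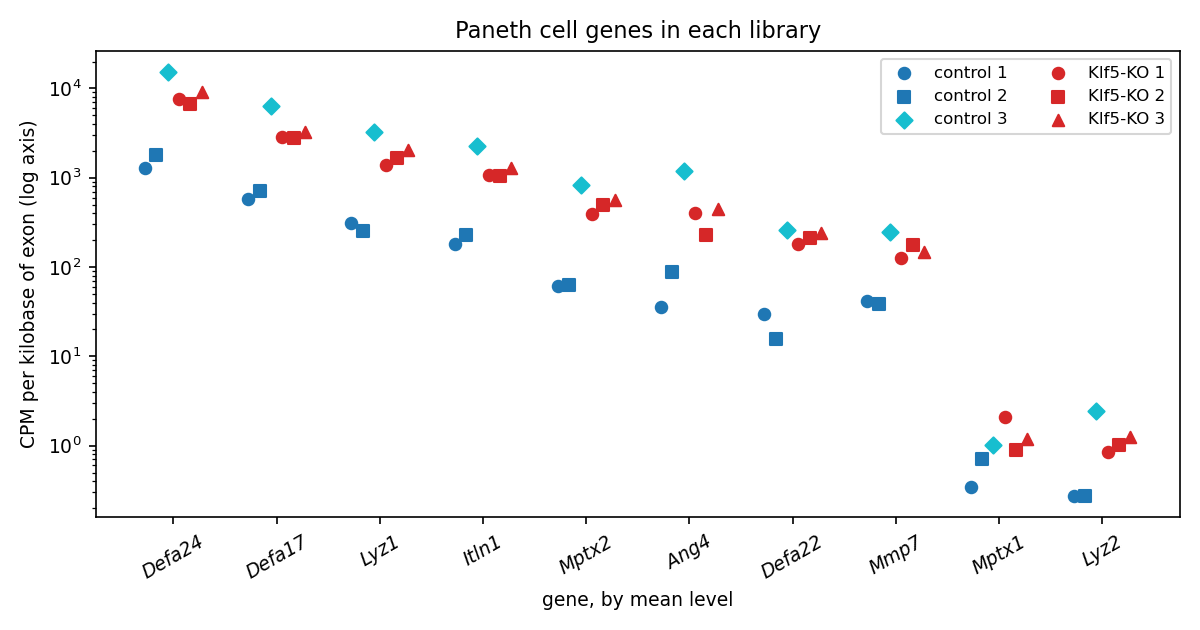
Level of each Paneth gene in CPM per kilobase of exon (log axis), 1 point per library, blue for control replicates 1 and 2, cyan for control replicate 3 and red for the libraries labelled Klf5-KO. For 9 of the 10 genes the red points lie above control replicates 1 and 2 and below control replicate 3, and Mptx1 is the exception.

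Levels of different genes were compared as CPM per kilobase of exon. In every library the order was Defa24, Defa17, Lyz1, Itln1. Over the libraries labelled Klf5-KO, Defa24 was at 7828 ± 1179 (SD, n = 3), Defa17 at 2936 ± 251, Lyz1 at 1698 ± 310.1 and Itln1 at 1133 ± 126 CPM per kilobase, and no neighbours among these overlapped. Mptx2 followed at 486 ± 86.8 and Ang4 at 356 ± 116 CPM per kilobase, and these overlapped with each other, as did Ang4 with Defa22 at 212 ± 27.5 CPM per kilobase. Mmp7 was at 151 ± 25.7 CPM per kilobase. Mptx1 at 1.398 ± 0.641 and Lyz2 at 1.04 ± 0.204 CPM per kilobase were lowest and overlapped. In the controls the SD exceeded the mean for every member but Mptx1 (Defa24: 6120 ± 7938 CPM per kilobase, SD, n = 3), and within each control Mptx1 and Lyz2 lay below every other member. Mmp7 was above Defa22 in control replicates 1 and 2 and below it in the other 4 libraries. Exon length counts positions that several copies share, so the levels of Defa17 and Defa22 per kilobase depend on how shared reads were counted.

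No member passed the test across all genes. With all 6 libraries, edgeR's quasi-likelihood test at an adjusted p below 0.05 called 0 of the 10 members higher and 0 lower in the libraries labelled Klf5-KO. Over all 19339 genes tested it called 25.8%, with 13.3% higher and 12.5% lower. At an unadjusted p below 0.05 it picked 1 member, Mptx1, and 7369 genes in all. DESeq2 and limma-voom also called 0 members, DESeq2 giving no adjusted p for 5 of them. The members' median log2 fold change was 0.39, against -0.01 over all genes tested. Single values ran from -0.29 ± 0.98 (SE, adjusted p = 0.855) for Ang4 to 1.05 ± 0.81 (SE, adjusted p = 0.375) for Defa22, both in edgeR. Mptx1 was at 1.03 ± 0.43 (SE, edgeR adjusted p = 0.114) and Lyz1 at 0.42 ± 0.79 (SE, edgeR adjusted p = 0.735). The groups overlapped for all 10, whereas 22.2% of all genes tested had non-overlapping groups with the libraries labelled Klf5-KO higher and 21.0% lower.

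Without control replicate 3 the same test called 9 of the 10 members higher and 0 lower, where it called 27.2% of 19879 genes, 13.8% higher. Control replicate 3 was set apart on the members' own counts. Leaving it out lowers their control mean and spread by construction, and only control replicates 1 and 2 remain. The adjusted p-values without it are therefore no independent support for a group difference. Defa22 was 9.37 times and Mptx2 7.79 times the mean of control replicates 1 and 2, with log2 fold changes of 3.23 ± 0.25 (SE, edgeR adjusted p = 0.000133) and 2.96 ± 0.16 (SE, edgeR adjusted p = 2.93e-05). Lyz1 was 5.95 times that mean, Ang4 5.75 times, Itln1 5.52 times, Defa24 5.08 times and Defa17 4.51 times. Lyz2 and Mmp7 were 3.80 and 3.74 times it. Mptx1 was 2.64 times it and was not called (edgeR adjusted p = 0.0551). The members' median log2 fold change rose to 2.40, while that of all genes stayed at -0.004. Among the fits that left out 1 library, only this one called any member: leaving out any other single library gave 0 members called higher. With all 6 libraries, limma-voom with sample quality weights called 7 members higher, and edgeR without the low-count filter called 2 (Mptx1 and Defa22). Lower RNA per cell and fewer Paneth cells in a library cannot be told apart in bulk samples, here and in every result on these genes.

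**Figure D2:**
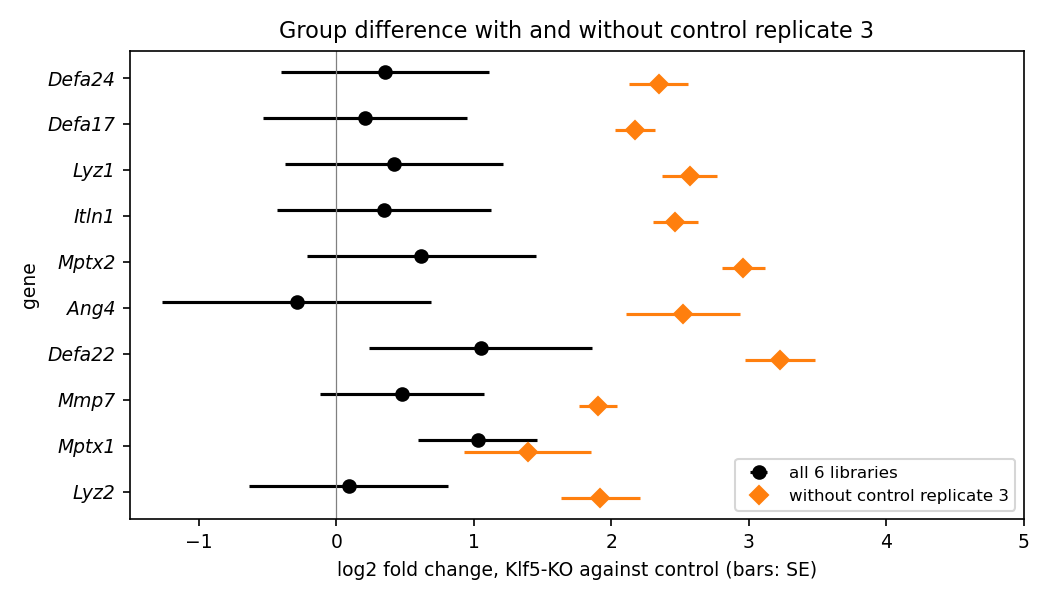
Log2 fold change of each Paneth gene, libraries labelled Klf5-KO against controls, with its standard error, from all 6 libraries (black) and without control replicate 3 (orange). The black points run from -0.29 to 1.05, and the orange points from 1.39 to 3.23.

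The excess in control replicate 3 was not general. Among 13751 genes that averaged 1 CPM or more, 56 (0.407%) were at least 4 times higher in control replicate 3 than in each of the other controls, against 6 (0.0436%) for control replicate 1 and 1 (0.00727%) for control replicate 2. The 56 held 9 of the 10 members and 22 further alpha-defensin genes or pseudogenes. Genes near 1 CPM, Lyz2 among the members, could reach that average only through control replicate 3, so their place among the 56 is no support. The other member, Mptx1, averaged below 1 CPM and was not among the genes compared. In Mptx1, control replicate 3 was 2.94 and 1.41 times the other controls, below the 4-fold limit. Among the other 25 were Clps, a colipase, Reg4 and Nupr1, Reg4 at 14.8, 18.6 and 123 CPM in the controls. Clps was at 12.4, 18.9 and 167 CPM in the controls and at 72.9, 61.6 and 99.0 CPM in those labelled Klf5-KO, so that it too was highest in control replicate 3 and lowest in the other controls.

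Other cell types were read beside this, and log2 fold changes in this paragraph are from edgeR with all libraries. Of 18 enteroendocrine genes 13 fell in the libraries labelled Klf5-KO and none rose, led by Fev (-1.52), Ghrl (-1.33) and Neurod1 (-1.30). Their summed level was 184 and 205 CPM in control replicates 1 and 2, 351 CPM in control replicate 3 and 113 to 120 CPM in the libraries labelled Klf5-KO. Of 16 goblet cell genes 7 fell, led by Tff3 (-1.46), Galnt12 (-0.92) and Fcgbp (-1.48), and none rose. Their sums were 2540.3 to 2833 CPM in controls and 1359 to 1736 CPM in the other group, with Fcgbp at 1146 to 1689 CPM in controls. Single goblet genes were less even: Spink4, at 116, 109 and 370 CPM in the controls, Reg4 and Ccl6 were highest in control replicate 3. Fcgbp, Clca1 and Zg16 were lowest there among the controls. The 14 stem cell genes summed to 9826 to 13229 CPM in controls, lowest in control replicate 3, and to 5628 to 6997 CPM in the other group. Olfm4 alone made 5556 to 7918 CPM of the control sums, so they say little about scarcer genes. Of the 14 genes 9 fell, led by Ascl2 (-2.10), Axin2 (-1.36) and Smoc2 (-0.93), and 1 rose.

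Of 14 acinar pancreas genes 6 had 0 counts in every library and 4 were tested, of which Ctrb1 fell (-1.49). Their sum, mostly Clps, was 16.1, 23.0 and 172 CPM in the controls and 64.9 to 102 CPM in the libraries labelled Klf5-KO. Of 13 tuft cell genes tested 8 rose, led by Matk (1.49), Rgs13 (1.43) and Sh2d6 (1.03), and none fell. Of 16 enterocyte genes 8 rose, led by Mttp (1.30), Sis (2.00) and Apob (1.26), and none fell. Of 10 lymphoid genes tested Cd4 fell (-2.17), and of 4 stromal genes tested Col1a2 rose (3.86) and Vim fell (-1.18). Col1a2 had only 5, 1 and 3 counts in the controls and 34, 36 and 63 in the libraries labelled Klf5-KO, so its fold change starts near the floor. Without control replicate 3 the numbers of genes called were the same for the enteroendocrine, tuft, enterocyte, lymphoid and stromal lists. For goblet cell genes they became 4 risen and 7 fallen, for stem cell genes 1 and 10, and for acinar genes 1 and 0, Ctrb1 being no longer called and Clps called higher. The part of these cell types in the members' levels was not tested.

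Ratios between members within a library remove what all of them share. Defa17 stood at 0.354 to 0.451 of Defa24 per kilobase in all 6 libraries, a range of 0.35 on the log2 scale, although Defa24 itself varied 11.8-fold between controls. Defa17 to Defa24 did not separate the groups (difference -0.16 log2, exact two-sided permutation p = 0.2). The ratio of Itln1 to Lyz1 ranged over 0.63 log2 and that of Defa24 to Lyz1 over 0.79 log2, also without separating the groups (exact two-sided permutation p = 0.7 and 0.6). These ranges over all 6 libraries include control replicate 3.

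Of the 13 ratios, 5 separated the groups, each with the libraries labelled Klf5-KO higher. With 3 libraries a side an exact permutation test cannot go below p = 0.1, which each of these reached, and the Benjamini-Hochberg adjusted value over the 13 was 0.26. The ratio of a tested gene to Lyz1, from CPM plus 0.5, separated the groups, in either direction, for 2.43% of 19338 genes. This is not a chance share for the 13 ratios, some of which have another denominator. Lyz1 ran from 324 to 4096 CPM in the controls, so the ratio of a gene without that excess will mostly overlap. Defa22 to Defa24 was 0.0228, 0.00882 and 0.0172 in the controls and 0.0240, 0.0316 and 0.0261 in the libraries labelled Klf5-KO, a mean difference of 0.84 log2. Defa22 to Defa17 differed by 1.00 log2 and Defa22 to Lyz1 by 0.69 log2. In all 3 of these ratios control replicate 2 was lowest and control replicate 3 lay between the other controls, so its excess of Paneth transcripts did not carry over to them. Mptx2 to Lyz1 was 0.197, 0.245 and 0.255 in the controls and 0.281, 0.298 and 0.280 in the libraries labelled Klf5-KO, a difference of 0.31 log2. Without control replicate 3 the differences were 0.94 for Defa22 to Defa24, 1.11 for Defa22 to Defa17, 0.73 for Defa22 to Lyz1, 0.38 for Mptx2 to Lyz1 and 0.66 for Lyz1 to Lyz2.

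The lysozymes were set against each other per kilobase. Lyz1 exceeded Lyz2 by 1159, 929 and 1336 times in the controls and by 1637, 1667 and 1602 times in the libraries labelled Klf5-KO. The log2 ratio was 10.14 ± 0.26 (SD, n = 3) and 10.68 ± 0.03 (SD, n = 3), a difference of 0.53, and the groups did not overlap. The Lyz2 counts behind it are few: the intervals of 26 counts (16.98 to 38.1) and 28 counts (18.6 to 40.5) in control replicates 1 and 2 are wider than this difference. Mptx2 exceeded Mptx1 by 88.1 to 818 times per kilobase, a range of 3.21 log2, the widest of the 13, and Mptx1 to Lyz1 ranged over 3.16 log2. Neither separated the groups (exact two-sided permutation p = 0.6 and 0.8). Mmp7 to Lyz1 was 0.133, 0.152 and 0.0755 in the controls and 0.0909, 0.106 and 0.0736 in the libraries labelled Klf5-KO, highest where Paneth transcripts were lowest, with overlapping groups (exact two-sided permutation p = 0.3). Ang4 to Lyz1 ran from 0.113 in control replicate 1 to 0.364 in control replicate 3 (exact two-sided permutation p = 0.6).

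**Figure D3:**
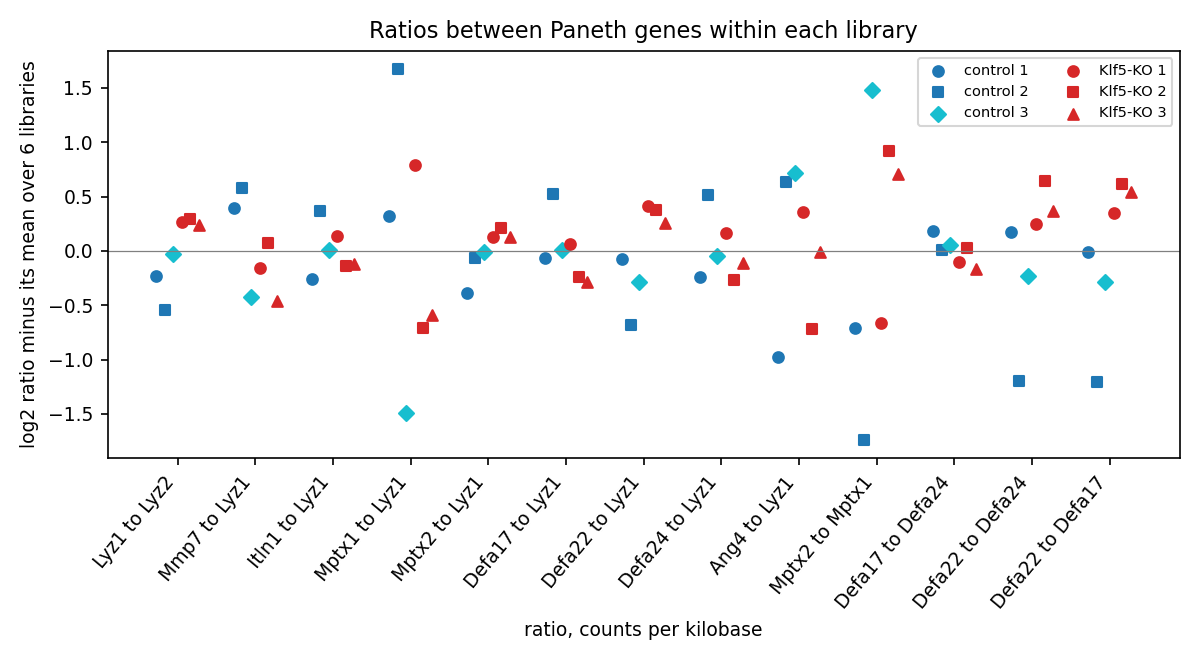
Log2 ratio of each pair of Paneth genes, in counts per kilobase, minus its mean over the 6 libraries, 1 point per library, coloured as in the plot of levels. Defa17 to Defa24 spans 0.35 log2, the ratios with Mptx1 span over 3, and control replicate 2 is lowest in the 3 ratios of Defa22.

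Near-identical copies set how far a single defensin can be trusted. The tables hold 22 genes named Defa, of which 21 had at least 10 counts in all libraries together, and RefSeq gives a Defa name to 6 more. Among the 22 genes with a Defa symbol in the tables, the 6 of highest count were Defa24 (1170497 counts over 6 libraries), Defa30 (809457), Defa17 (434180), Defa5 (46719), Defa3 (45832) and Defa22 (26448). Of the 6 further genes, Gm14851, which RefSeq names Defa38, had 448487 counts and AY761184, which it names Defa39, 350682. Of the 28 together, Defa24 held 32.1% to 35.2% of the counts in every library. Defa17 and Defa3, whose printed coding sequence is the same, differed by 434180 to 45832 counts.

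Each gene's transcripts were cut into every stretch of 50 bases, and the share found in no other gene was taken. It was 71.9% for Defa24, 25.1% for Defa22 and 8.05% for Defa17. With stretches of 100 bases it was 100% for Defa24, 59.7% for Defa22 and 9.40% for Defa17. The stretches of Defa17 recurred in 15 other genes, mostly Defa3, and those of Defa22 mostly in Defa21. For the members outside this family the 50-base share was 82.01% (Mptx2) to 99.0% (Itln1), with 83.9% for Lyz1 and 84.6% for Lyz2.

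At the extreme, Defa2 and Defa33 have identical coding sequences and 0% unique stretches at either length, yet Defa2 was given 12665 counts and Defa33 9. Defa20 and Defa32, also identical in their coding sequences, had 6286 and 410 counts. Exact stretches do not show how such reads were placed: the counting command in the file headers names no option for reads with several positions, and no source used here gives the read length or the alignment settings. How many reads of Defa17, Defa22 or Lyz2 came from a copy was not tested.

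**Figure D4:**
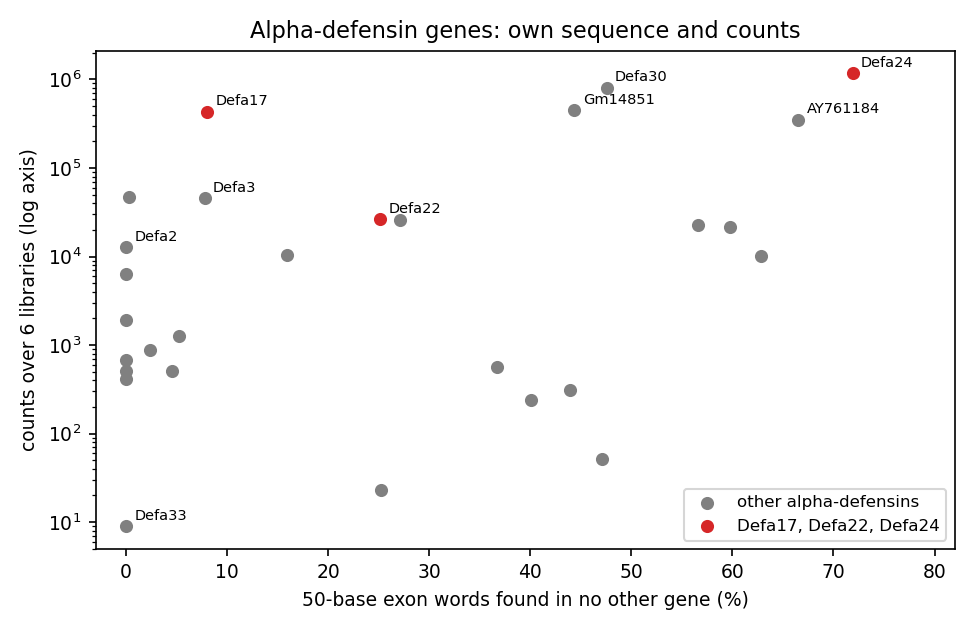
Counts over all 6 libraries (log axis) of the 28 alpha-defensin genes against the percentage of their 50-base exon stretches found in no other gene, with the 3 members in red. Defa24 has 71.9% and Defa17 8.05%, and Defa2 (12665 counts) and Defa33 (9 counts) both lie at 0%.

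Summing copies avoids the choice between them for reads that were counted at all. The 22 Defa genes together were at 1199 and 1643 CPM in control replicates 1 and 2, 14428 CPM in control replicate 3, and 7242, 6743 and 8313 CPM in those labelled Klf5-KO. The group means were 5757 ± 7513 CPM (SD, n = 3) and 7433 ± 802 CPM (SD, n = 3). The log2 fold change was 0.37 ± 0.76 (SE, edgeR adjusted p = 0.755) and, without control replicate 3, 2.39 ± 0.23 (SE). The sum therefore showed the same dependence on 1 library as the single genes. Relative to Defa24, 16 other alpha-defensins with at least 1000 counts were followed. Of these 8 were lowest in control replicate 2, Defa5, Defa21, Defa22 and Defa29 among them. Only Defa22 was higher in every library labelled Klf5-KO than in every control, and none was lower. The margin was narrow, 0.0240 in replicate 1 of that group against 0.0228 in control replicate 1. No share over all genes was computed for ratios to Defa24, so 1 of 16 is not read as particular to Defa22.

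Defa21, which differs from Defa22 at the 2 coding positions shown, was at 0.0290, 0.00989 and 0.0191 of Defa24 in the controls and at 0.0185, 0.0334 and 0.0243 in the libraries labelled Klf5-KO, so its groups overlapped. Both copies were lowest against Defa24 in control replicate 2 and highest in replicate 2 of the libraries labelled Klf5-KO. A difference between the copies was not tested.

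Promoter sequence was read where RefSeq held it, for 8 of the 10 members, in a table of GRCm38.p6. The lysozymes are shown because their levels differ about 1000-fold. Over the 250 bases before their start sites, Lyz1 at chr10:117292869-117293118 and Lyz2 at chr10:117282273-117282522, both on the minus strand, 200 of 252 aligned positions were the same (79.37%, with 4 gap positions). The start sites are those of RefSeq. The 5′ end of Lyz2 in the counted gene model, chr10:117282321, lies inside the Lyz2 window, whereas the Lyz1 window begins just beyond its counted gene. Capitals in Lyz2 mark its differences from Lyz1.
Lyz1 promoter: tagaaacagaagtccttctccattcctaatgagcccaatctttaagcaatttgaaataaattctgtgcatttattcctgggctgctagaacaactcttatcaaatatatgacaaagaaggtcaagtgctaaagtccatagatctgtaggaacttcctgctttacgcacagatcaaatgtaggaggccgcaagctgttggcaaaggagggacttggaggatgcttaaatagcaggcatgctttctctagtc
Lyz2 promoter: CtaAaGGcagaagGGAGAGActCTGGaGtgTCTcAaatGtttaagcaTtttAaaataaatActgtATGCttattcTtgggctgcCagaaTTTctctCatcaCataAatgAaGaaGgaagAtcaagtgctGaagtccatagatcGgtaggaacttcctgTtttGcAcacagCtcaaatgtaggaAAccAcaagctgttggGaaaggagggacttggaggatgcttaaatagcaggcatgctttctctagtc

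Both windows end in the same run of bases up to the start site. The 4 motifs below were searched on both strands of the windows of 300 bases that run on past the start site: CTTTGA, the core of TCF binding sites, CAGCTG, an E-box, CCACCC, a KLF-type box, and ACAATG, a SOX core. CAGCTG occurred 1 time in Lyz1 and 1 time in Lyz2, and in 16.3% of 32851 promoters. CTTTGA occurred 2 times in Defa22, and 1 time each in Mptx1 and Mmp7, and in 16% of promoters. CCACCC occurred in Ang4 and in 31.5% of promoters. ACAATG occurred in Mptx2 and Mmp7 and in 12.6% of promoters, and Itln1 held none of the 4. The CAGCTG of Lyz1 and of Lyz2 lies past the start site, and the ACAATG of Mptx2 includes its start codon. All these motif matches are letters in a window and describe neither binding nor a cause.

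Other secreted or antimicrobial Paneth products were read from a list of 42 genes in the tables, of which 36 were tested. With all libraries 4 rose and 1 fell, with a median log2 fold change of 0.37. Without control replicate 3, 32 rose and 1 fell, with a median of 2.13, much as in the members. Many genes of the list are alpha-defensins. Clps stands in both this list and that of the acinar pancreas, and Spink4 in both this list and that of goblet cells. Other lists share genes too, among them Sox9 (stem cell and Paneth fate) and Dll1 and Dll4 (Paneth fate and niche signals). Those that rose with all libraries were Spink1, a trypsin inhibitor, and the lectins Reg3a, Reg3b and Reg3g. Reg3g was at 221, 31.2 and 137 CPM in the controls and at 1747, 5057 and 1749.6 CPM in those labelled Klf5-KO (log2 fold change 4.46 ± 0.71, SE, edgeR adjusted p = 0.00211). Reg3g was not highest in control replicate 3, and its groups did not overlap, with a log2 fold change of 4.50 without that library. Reg3a went from 2.26 ± 0.723 to 15.1 ± 4.21 CPM and Spink1 from 4.13 ± 1.46 to 25.3 ± 4.97 CPM (SD, n = 3 each). The gene that fell was Kcnn4, a calcium-activated potassium channel of Paneth granule release, from 103 ± 8.05 to 21.5 ± 3.19 CPM (SD, n = 3; log2 fold change -2.26, edgeR adjusted p = 7.43e-06).

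As a list, genes of Paneth fate and granule formation did not follow the members. All 36 are in the tables and 34 were tested, and 3 rose and 12 fell, both with all libraries and without control replicate 3. Their summed level was 3744 to 3775 CPM in the 3 controls, control replicate 3 included, and 3189 to 3265 CPM in the libraries labelled Klf5-KO. Hspa5 alone made 615 to 834 CPM of the control sums, so the sum says little about scarcer genes. Atoh1 was at 9.39, 12.1 and 15.8 CPM in the controls and Spdef at 8.81, 13.9 and 19.2 CPM, both highest in control replicate 3. Among the controls many other genes of the list were also highest there, such as Ern2 (18.5, 24.7 and 33.7 CPM), Creb3l1 (21.7, 29.9 and 35.6 CPM), Kit, Dll1 and Dll4. No tested gene of the list was 4 times higher in control replicate 3 than in each of the other controls. Ephb2, Sox9 and Hspa5 were among those not highest in that library. Ephb3, the ephrin receptor that holds Paneth cells at the crypt base, fell from 126 ± 6.80 to 42.5 ± 2.32 CPM (SD, n = 3). Ephb2 fell from 209 ± 9.72 to 97.9 ± 3.08 CPM, and Foxa2 from 19.9 ± 0.0657 to 8.73 ± 1.39 CPM (SD, n = 3 each). Sox9, which Paneth cells need and stem cells also express, fell by 0.42 on the log2 scale (edgeR adjusted p = 0.00907), and Atoh1, the secretory lineage factor, by 0.71 (edgeR adjusted p = 0.0312). Without control replicate 3, Sox9 fell by 0.43 and was still called (edgeR adjusted p = 0.0109), while Atoh1 was at -0.50 and was not (edgeR adjusted p = 0.0788). The 3 that rose were Tcf7l2, Gata6 and Ripk2. Bhlha15, a factor of secretory cells also called Mist1, was at 6.32, 8.94 and 23.1 CPM in the controls and at 7.46, 11.2 and 10.1 CPM in the other group, highest in control replicate 3 and not called (log2 fold change -0.41, edgeR adjusted p = 0.492, and 0.33, adjusted p = 0.285, without that library).

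Of the signals that Paneth cells supply to stem cells, 13 of 15 were tested, and 1 rose and 4 fell (2 and 3 without control replicate 3). Btc, an EGF family ligand, rose from 5.59 ± 0.525 to 11.4 ± 1.26 CPM (SD, n = 3). The Notch ligands Dll4 and Dll1 fell, Dll4 from 36.0 ± 8.54 to 13.7 ± 2.15 CPM and Dll1 from 94.7 ± 15.8 to 52.6 ± 0.888 CPM (SD, n = 3 each). Both are also made by early secretory cells. Wnt3 was at 4.92, 4.21 and 9.75 CPM in the controls and at 4.50, 5.02 and 4.46 CPM in those labelled Klf5-KO, and Egf was at 2.57, 2.07 and 5.15 CPM and at 3.55, 2.45 and 2.89 CPM. Each was highest in control replicate 3 and neither was called.

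The genes whose pattern was most like the members' were found by the root mean square difference of centred log2 CPM over the 6 libraries from the members' mean profile. That profile was -1.69, -1.53 and 1.43 in the controls and 0.53, 0.49 and 0.76 in the libraries labelled Klf5-KO. Over the 13742 genes compared the median distance was 1.20. The nearest were AY761184, which RefSeq names Defa39 (0.14), Defa-ps6 (0.15), Nupr1 (0.17), Defa3 (0.19), Habp2 (0.19), Reg4 (0.20), Defa26 (0.21), Clps (0.21), Gm15292, which RefSeq names Defa40 (0.21), and Sntb1 (0.22). Of these 10, 5 are alpha-defensins or their pseudogene. Taken singly, Defa24 was nearest to Clps (0.10), Defa17 to AY761184 (0.09), Itln1 to Defa3 (0.13), Lyz2 to Defa-ps1 (0.12) and Defa22 to Defa5 (0.13). Lyz1 was nearest to Gm15292 (0.21), Mptx2 to Defa5 (0.30), Ang4 to Clps (0.42) and Mptx1 to Sycn (0.14). The gene nearest to Mmp7 has only a provisional symbol (0.16). Of the members, Mptx1 lay farthest from their own mean (0.94), followed by Ang4 (0.61) and Defa22 (0.55), and Defa17 lay closest (0.11). The log2 values in this comparison were of CPM plus 0.5. That addition is large beside the levels of Mptx1 and Lyz2 and flattens their profiles. Their distances and nearest genes are therefore not comparable with those of the abundant members.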

How the data were processed

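RNA was measured in 6 libraries of sorted Lgr5-EGFPhi cells, 3 per group, prepared with a stranded kit that removes ribosomal RNA, per the labels' protocols. The authors deposited raw counts per gene: the submitters' processing notes name STAR 2.5.2a and mm10, and reads were counted on the reverse strand with featureCounts 1.4.3-p1 against GENCODE vM16 per the file headers. The headers name no option for read pairs or reads with several positions, and 1 header names a Klf5-KO library by another number than its label. Symbols were added from GENCODE vM21 for 53274 of 53379 gene IDs.

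The groups were compared with edgeR 4.0.16 (R 4.3.3): TMM scaling, filterByExpr, quasi-likelihood F test, Benjamini-Hochberg adjustment over the 19339 genes kept and a threshold of 0.05. The 10 members all passed the filter. DESeq2 1.42.0 and limma 3.58.1 were alternatives. Ratios used counts per kilobase and an exact permutation test. The test was checked on simulated counts for 19019 genes of this comparison. It recovered 32% of genes changed 1.5-fold, 92% of those changed 2-fold and 100% of those changed 4-fold, with 13 of 175 calls on unchanged genes. The changed genes were drawn at random, each with its own dispersion, so these rates do not describe the members. The members' log2 fold changes had SEs of 0.43 (Mptx1) to 0.98 (Ang4) with all libraries. Every pair of libraries differed by more than counting noise (chi-square statistic over its degrees of freedom 44.8 or more). The members and lists were chosen with earlier results of these data known. All 10 members are named; from each list, the 3 called genes of lowest adjusted p (if none, the gene of highest level); and the 6 genes with a Defa symbol of highest count. Other genes named (among them Klf5, Reg4, Sox9, Bhlha15, Wnt3, Egf, Defa2, Defa21, Gm14851, Cd68) were singled out after their values were seen.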

Additional observations from a re-analysis of the deposited data

How the results depend on the processing

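Other scaling (RLE, upper quartile, or without mitochondrial and 2 ribosomal repeat genes), a filter of CPM above 1 in 3 libraries, DESeq2, limma-voom and a robust dispersion left 0 members called in either direction. Limma-voom nevertheless gave larger log2 fold changes: Lyz1 1.39, Lyz2 0.93, Mmp7 1.03, Itln1 1.31, Mptx2 1.71, Defa17 1.08, Defa22 2.17, Defa24 1.24 and the alpha-defensin sum 1.27, with Mptx1 at 1.07. The number of members called higher became 2 without the low-count filter, 7 with limma-voom and sample quality weights, and 0 to 9 when 1 library was left out, 9 only without control replicate 3. The alpha-defensin sum, 0.37 on the log2 scale, became 1.82 with sample quality weights, where it was called (adjusted p = 0.0347), and -0.11 to 2.39 when 1 library was left out. At an adjusted p below 0.01 edgeR called 1226 genes higher and 1118 lower. At the threshold of 0.05 it called 2581 higher and 2413 lower with all libraries. Leaving out 1 library gave, at 0.05, 1605 to 2740 higher and 1467 to 2664 lower. The counts furthest below were without control replicate 2 (1689 higher) and without replicates 1 (1605 higher, 1467 lower), 2 (1606 lower) and 3 (1526 lower) of the libraries labelled Klf5-KO. The Lyz1 to Lyz2 difference stayed between 0.39 and 0.66 log2 when 1 library was left out. Replicate numbers did not pair the libraries (correlations of deviations -0.04, 0.05 and -0.04), and with the replicate number as a replicate block edgeR called 2286 genes higher and 2088 lower, 0 members, and gave the alpha-defensin sum as 1.36. Signs turned for Ang4 (-0.29), to 1.15 with limma-voom, 1.92 with sample quality weights and 1.18 with the replicate block. When 1 library was left out, the log2 fold change ran from -0.83 to 2.52 for Ang4, -0.081 to 2.57 for Lyz1, -0.38 to 1.92 for Lyz2, -0.14 to 2.46 for Itln1, -0.26 to 2.17 for Defa17 and -0.12 to 2.34 for Defa24. For genes other than Ang4 the values below 0 came without control replicate 1 or 2 and, for Lyz2, also without replicate 3 of the libraries labelled Klf5-KO (-0.07), and each highest value came without control replicate 3. The cause was not tested. Depth limits Lyz2 and Mptx1, with 20 to 198 counts per library.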
